A study of Mus musculus with 4 samples.

Results

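The 30 genes described here make, sense and move cholesterol, and they were taken by name from 54752 genes in tables of mouse epidermal RNA. They comprise 19 synthesis enzymes, 6 genes of sterol regulatory element-binding protein (SREBP) control and sterol transfer, and 5 genes of the liver X receptor (LXR) and cholesterol efflux. Epidermis was taken from 4 C57BL/6 pups on postnatal day 0, of which 2 were Skiv2l fl/fl K14-Cre and 2 were Skiv2l ctl littermates. SKIV2L is a helicase that feeds RNA to the exosome of the cytoplasm, and the Cre recombinase driven by the keratin 14 promoter deletes its floxed alleles in keratinocytes, the main cell of the epidermis. Skiv2l ctl is a pooled name for pups that were homozygous floxed without Cre, heterozygous floxed without Cre, or Skiv2l fl/+ with K14-Cre, and which of these each control was is not given, so a control may itself carry Cre and 1 deleted allele. The comparison asks how the keratinocyte deletion changed the transcript levels of the epidermis.

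Cells make cholesterol from acetyl-CoA through mevalonate, isoprenoid diphosphates, squalene and lanosterol. When membrane cholesterol is low, SCAP escorts SREBP from the endoplasmic reticulum to the Golgi, where proteases release its transcription factor domain, which turns on the synthesis genes; when cholesterol or oxysterols are plentiful, INSIG proteins hold SCAP back, and oxysterol-bound LXR turns on the pumps that export cholesterol. In the epidermis, cholesterol is packed with ceramides and fatty acids into the lipid sheets between cornified cells that keep water in the body.

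The values are FPKM, sequenced fragments scaled for library size and for transcript length, so that levels of different genes can be set side by side. Depth, read from the ratio of deposited coverage to FPKM, was 6.085 and 6.274 aligned gigabases in control and 5.843 and 5.931 in Skiv2l fl/fl K14-Cre libraries. Skiv2l itself was at 19.3 and 19.1 FPKM in controls and fell to 10.8 and 8.55 FPKM in knockouts, as the Skiv2l fl/fl K14-Cre pups are called from here (log2 fold change -0.92, SE 0.12, adjusted p = 0.00368 by limma). Summed FPKM of 6 keratinocyte markers was 25841 and 27389 against 23983 and 27336, with 2 of the 6 markers called higher and 1 lower. Of the basal keratins, Krt14 rose with a log2 fold change of 2.05 (adjusted p = 0.000171 by limma) and Krt5 had one of -0.21 and was not called, and of the suprabasal keratins Krt1 fell (-0.51) and Krt10 had one of -0.44 and was not called. Other markers moved with genotype: 6 leukocyte markers summed to 22.0 and 30.1 FPKM in controls and 13.9 and 13.0 FPKM in knockouts, with Cd207 at or near 0 throughout and 2 of 5 tested markers called lower, and 6 dermal fibroblast markers, mostly Dcn, to 61.3 and 69.0 against 21.9 and 25.0, with Lum at most 0.138. Of 5 tested fibroblast markers 2 were called lower, Dcn and Col1a2, and 0 higher. Col1a1 and Col3a1 overlapped between genotypes. Pdgfra went the other way without being called, at 0.299 and 0.250 FPKM in controls and 0.789 and 0.668 FPKM in knockouts. The 5 adipocyte markers summed to 2.49 and 2.35 against 56.4 and 58.4, nearly all of it Fabp4, with Adipoq and Cidec at 0 in all 4 libraries, and the 5 sebocyte markers summed to 6.66 and 10.3 against 16.7 and 13.7, where Cidea, the 1 marker called, went from 0.814 and 1.18 to 7.71 and 5.80. Melanocyte markers summed to 52.4 and 59.6 against 55.1 and 67.5, endothelial markers stayed under 1 FPKM in sum, and erythroid markers summed to 134 and 125 against 62.0 and 80.7. The part of these shifts in the sterol gene values was not tested, and in whole tissue fewer cells of a type cannot be told apart from less RNA per cell.

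The sterol genes split into those that rose and a smaller number that fell. Of the 29 members with FPKM above 0.5 in at least 1 library, 9 rose and 4 fell in Skiv2l fl/fl K14-Cre epidermis, where the share called across all 13609 tested genes (limma, adjusted p under 0.05) was 8.99% for rises and 25.4% for falls. The remaining 16 did not pass the test, and Nr1h3 was too low to be tested. The log2 fold change was positive for 19 of the 29 and for 28.1% of all tested genes, and its median was 0.17 over the members and -0.20 over all tested genes. The 2 knockouts lay above both controls for 14 members and below both for 4, against 18.2% and 55.3% of all tested genes. The largest rises were those of the efflux pumps Abcg1 and Abca1, followed by the enzymes Lss, Cyp51, Msmo1 and Sqle. The fall of all genes depends on how libraries are scaled: with every library set to the same median, the median over all genes moved to -0.03, the share of called genes that were higher went from 26.1% to 53.9%, and the members' counts became 13 higher and 1 lower. The p-values rest on the spread between 2 pups per genotype, which limma pulls toward that of tested genes of similar level. An exact permutation test of 2 against 2 cannot give a two-sided p below 0.333.

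**Figure D1:**
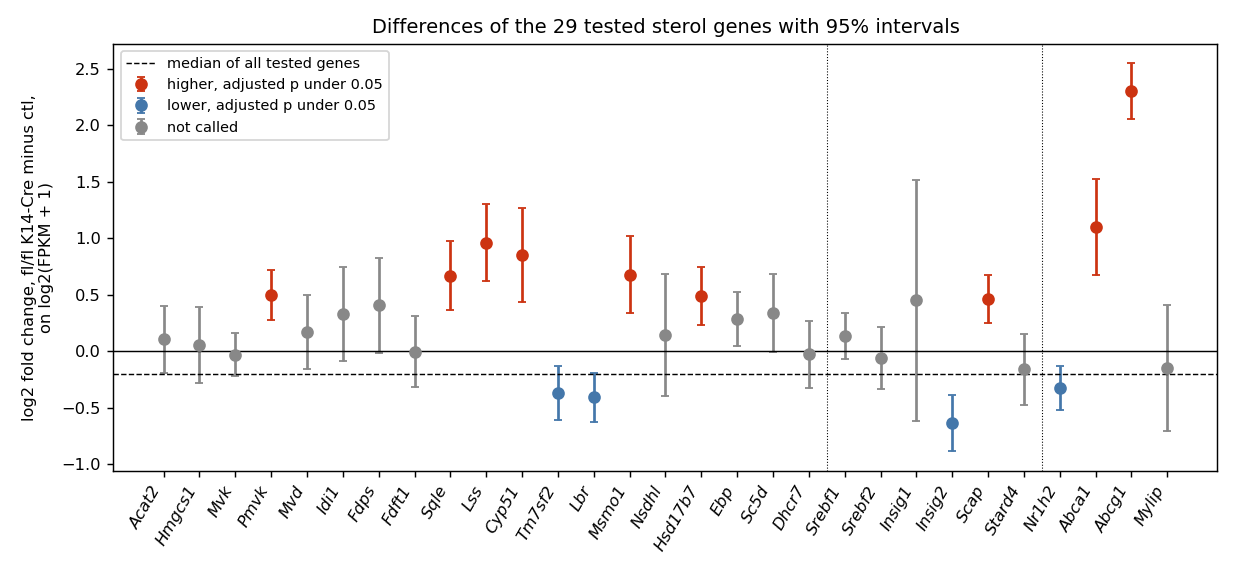
Log2 fold change of each of the 29 tested sterol genes (vertical axis, Skiv2l fl/fl K14-Cre minus Skiv2l ctl on log2(FPKM + 1)) with its 95% interval, in pathway order and split by dotted lines into synthesis, SREBP control, and LXR and efflux; red points are called higher, blue points lower and grey points not called. Abcg1 stands highest at 2.30 and Insig2 lowest at -0.64, and the dashed line marks the median of all tested genes at -0.20.

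Sterol-responsive promoters usually pair an SREBP site with a box for the factor NF-Y or Sp1. Promoters of some enzymes that rose, fell or were not called, and of an efflux pump, are shown to let NF-Y boxes be compared. They are RefSeq sequences on GRCm38.p6, each the 200 bases before a RefSeq transcript start, read 5′ to 3′ on the gene's strand. Capitals mark the NF-Y box CCAAT, on either strand (where it reads ATTGG), and the exact string TCACNCCAC, a form of the sterol regulatory element. Sp1 boxes are not marked.
Hmgcs1, chr13:119690151-119690350, plus strand: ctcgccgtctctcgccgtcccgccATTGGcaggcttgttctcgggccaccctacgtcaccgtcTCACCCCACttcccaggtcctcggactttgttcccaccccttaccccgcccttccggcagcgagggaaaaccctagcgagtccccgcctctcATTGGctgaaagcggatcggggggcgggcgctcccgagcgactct
Lss, chr10:76531405-76531604, plus strand: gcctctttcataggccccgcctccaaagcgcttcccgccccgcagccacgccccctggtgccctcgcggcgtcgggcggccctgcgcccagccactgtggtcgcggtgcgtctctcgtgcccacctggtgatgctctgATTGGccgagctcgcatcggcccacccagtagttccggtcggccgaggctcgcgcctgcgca
Cyp51, chr5:4104698-4104897, minus strand: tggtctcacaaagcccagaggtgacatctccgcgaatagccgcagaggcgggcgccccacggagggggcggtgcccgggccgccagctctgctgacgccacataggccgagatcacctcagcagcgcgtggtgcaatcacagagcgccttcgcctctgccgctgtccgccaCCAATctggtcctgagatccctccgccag
Msmo1, chr8:64733579-64733778, minus strand: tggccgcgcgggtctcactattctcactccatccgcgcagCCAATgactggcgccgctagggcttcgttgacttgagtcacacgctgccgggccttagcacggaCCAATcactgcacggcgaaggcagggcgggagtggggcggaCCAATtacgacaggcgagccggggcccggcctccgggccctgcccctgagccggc
Tm7sf2, chr19:6067851-6068050, minus strand: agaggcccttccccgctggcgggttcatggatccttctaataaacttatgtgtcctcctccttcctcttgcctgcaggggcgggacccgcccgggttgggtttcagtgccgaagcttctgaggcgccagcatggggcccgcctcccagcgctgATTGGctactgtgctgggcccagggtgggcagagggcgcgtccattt
Lbr, chr1:181842402-181842601, minus strand: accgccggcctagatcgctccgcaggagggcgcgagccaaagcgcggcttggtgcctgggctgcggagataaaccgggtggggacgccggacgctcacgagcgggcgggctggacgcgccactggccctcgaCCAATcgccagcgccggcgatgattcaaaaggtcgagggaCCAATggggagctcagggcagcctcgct
Abca1, chr4:53159896-53160095, minus strand: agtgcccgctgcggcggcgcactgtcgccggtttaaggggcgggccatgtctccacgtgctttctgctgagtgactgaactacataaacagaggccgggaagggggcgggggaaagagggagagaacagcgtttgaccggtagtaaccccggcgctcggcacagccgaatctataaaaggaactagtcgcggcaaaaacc
Hmgcs1, Lss, Cyp51, Msmo1, Tm7sf2 and Lbr each hold at least 1 NF-Y box here, whether they rose (Lss, Cyp51, Msmo1), fell (Tm7sf2, Lbr) or were not called (Hmgcs1), and Abca1 holds none. In the full window, from 250 bases before to 50 after the start, 25 of the 30 members matched a RefSeq promoter, and a promoter of 20 of them (80.0%) held CCAAT, against 41.06% of all genes in the table. Among the 16 matched synthesis enzymes it was found in 15. The Sp1 box GGGCGG was found for 22 of the 25 (88.0%) against 38.2% of all genes, and the E-box CACGTG for 6 (24.0%) against 8.09%. All genes here are the 27025 with a RefSeq promoter, tested or not. They had 32851 promoters, and the 25 members had 34. GC content and expression were not matched. TCACNCCAC was found for 1 member, Hmgcs1, at position -137 from the start, and for 1.44% of all genes. Only this exact string was searched, so a site with other letters was not counted. Members without a match may therefore still hold an SREBP site. Motifs were searched on both strands and matches of different motifs can share bases, and CACGTG reads the same on both strands; a match is a description of sequence only. The members without a matched promoter were Abcg1, Fdft1, Fdps, Sqle and Stard4.

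Synthesis enzymes moved unevenly along the pathway. Of all 19, 6 rose and 2 fell, where 8.99% of all tested genes rose and 25.4% fell, with a median log2 fold change of 0.28, and their summed level was 506 and 594 FPKM in controls and 647 and 687 FPKM in knockouts. In the 8 steps from acetyl-CoA to squalene 1 enzyme rose and none fell, with a median of 0.14, and in the 11 steps from squalene to cholesterol 5 rose and 2 fell, with a median of 0.34. The difference between these stretches was not tested.

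In the early stretch the enzyme that rose was Pmvk, phosphomevalonate kinase, which was at 16.2 and 16.6 FPKM in controls and 22.6 and 24.5 FPKM in knockouts. The control values nearly coincide and both knockouts lie above them (log2 fold change 0.50, SE 0.09, adjusted p = 0.00963 by limma). Hmgcs1, which makes HMG-CoA and had the highest level of the 19, was at 63.6 and 82.1 against 71.0 and 79.7 FPKM, so that the knockouts fell between the controls. Mvk, mevalonate kinase, was nearly flat at 46.2 and 45.5 against 45.7 and 44.1 FPKM, with a 95% interval of its log2 fold change from -0.22 to 0.16. Fdps, which joins isoprenoid units into farnesyl diphosphate, was at 41.9 and 59.4 against 61.5 and 71.8 FPKM. Idi1, the isopentenyl diphosphate isomerase, was at 11.0 and 15.9 against 16.1 and 17.9 FPKM. For both of these the knockouts lay above the controls by less than the controls differed from each other, and neither was called (adjusted p = 0.113 and 0.171 by limma), although Fdps was with libraries set to the same median (log2 fold change 0.62, adjusted p = 0.0432, in a range from 0.021 to 0.457 across alternatives). Acat2, Mvd and Fdft1, which respectively begin the pathway, decarboxylate mevalonate diphosphate and make squalene, had log2 fold changes of 0.11, 0.17 and -0.00 with overlapping groups. Without the first control pup Pmvk was not called (adjusted p = 0.0892), nor without the second (adjusted p = 0.0795), over a range from 0.00363 to 0.0892 across all alternatives.

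The 3 enzymes that turn squalene into lanosterol and begin to trim it rose together, and Lss and Cyp51 had the largest rises of the 19. Sqle, squalene epoxidase, a rate-controlling enzyme, was at 40.9 and 51.2 FPKM in controls and 69.7 and 77.2 FPKM in knockouts. Lss (ENSMUSG00000033105.12, GRCm38 chromosome 10, 76531588 to 76557138), which folds squalene epoxide into lanosterol, was at 13.0 and 17.0 against 28.4 and 31.4 FPKM, a ratio of means of 1.99. Cyp51, which removes a methyl group from lanosterol, was at 15.4 and 21.7 against 31.0 and 36.7 FPKM. In all 3 the lower knockout lay well above the higher control, and the second control pup was above the first. The log2 fold changes by limma were 0.67 (SE 0.13, adjusted p = 0.0110) for Sqle, 0.96 (SE 0.14, adjusted p = 0.00465) for Lss and 0.85 (SE 0.17, adjusted p = 0.0136) for Cyp51. Only 3.37% of all tested genes had a higher log2 fold change than Lss. Lss was called under every alternative run (adjusted p from 0.000597 to 0.0416), whereas without the first control pup the adjusted p was 0.0735 for Sqle and 0.0765 for Cyp51, and without the second knockout 0.0582 for Cyp51. Cyp51 shares 2.07% of its 75-base stretches with the opposite-strand gene Akap9, which was flat at 17.7 and 18.2 against 19.0 and 16.9 FPKM.

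The next step, reduction of the bond left by Cyp51, can be done by either of 2 enzymes, and both fell. Tm7sf2, a reductase of the endoplasmic reticulum, was at 27.4 and 28.3 FPKM in controls and 22.9 and 19.9 FPKM in knockouts. Lbr, the lamin B receptor, which is both this reductase and an anchor of chromatin at the inner nuclear membrane, was at 17.5 and 17.8 against 13.4 and 12.8 FPKM. The control values of each gene were close together and no knockout reached them, and the ratio of Tm7sf2 to Lbr was 1.56 and 1.59 in controls and 1.71 and 1.56 in knockouts. The log2 fold changes were -0.37 (SE 0.10, adjusted p = 0.0339 by limma) and -0.41 (SE 0.09, adjusted p = 0.0174). With libraries set to the same median they became -0.16 and -0.21 and were not called, nor were they with quantile normalization (-0.26 for each). Without the first control pup the adjusted p was 0.148 for Tm7sf2 and 0.117 for Lbr, without the second 0.177 and 0.125, and without the second knockout 0.0802 for Tm7sf2, over ranges of 0.021 to 0.247 and 0.0122 to 0.131 across alternatives. Tm7sf2 shares 8.83% of its 75-base stretches with Vps51, which lies over it on the same strand, and their reads could be split either way.

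Of the 6 later enzymes 2 rose and 4 did not pass the test. Msmo1, the oxidase that starts removal of methyl groups beside the sterol hydroxyl, was at 29.4 and 39.4 FPKM in controls and 55.7 and 54.5 FPKM in knockouts. Hsd17b7, a ketosteroid reductase of the same demethylation, was at 22.4 and 25.7 against 32.4 and 35.8 FPKM. Both rose, with no overlap between groups and log2 fold changes by limma of 0.68 (SE 0.14, adjusted p = 0.0151) and 0.49 (SE 0.10, adjusted p = 0.0163). Nsdhl, which acts between them, was at 7.19 and 11.1 against 8.46 and 11.8 FPKM and overlapped. Ebp, the sterol isomerase, was at 19.7 and 22.2 against 24.9 and 26.4 FPKM (adjusted p = 0.0673 by limma), and Sc5d, the sterol desaturase, at 12.4 and 16.7 against 18.2 and 18.9 FPKM (adjusted p = 0.112). Both had separated groups without passing the test, and both passed it with libraries set to the same median (adjusted p = 0.0148 for Ebp and 0.0346 for Sc5d). Dhcr7, the last reductase of this branch, was at 63.1 and 50.0 against 54.5 and 55.7 FPKM, with a control on either side of both knockouts. Leaving out a library ended the call of Msmo1 without the first control (adjusted p = 0.0682), the first knockout (0.0506) or the second knockout (0.0503), and of Hsd17b7 without the first control (0.12), the second control (0.0634) or the second knockout (0.0537), and the adjusted p ranged from 0.00488 to 0.0682 and from 0.00565 to 0.12 across all alternatives.

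**Figure D2:**
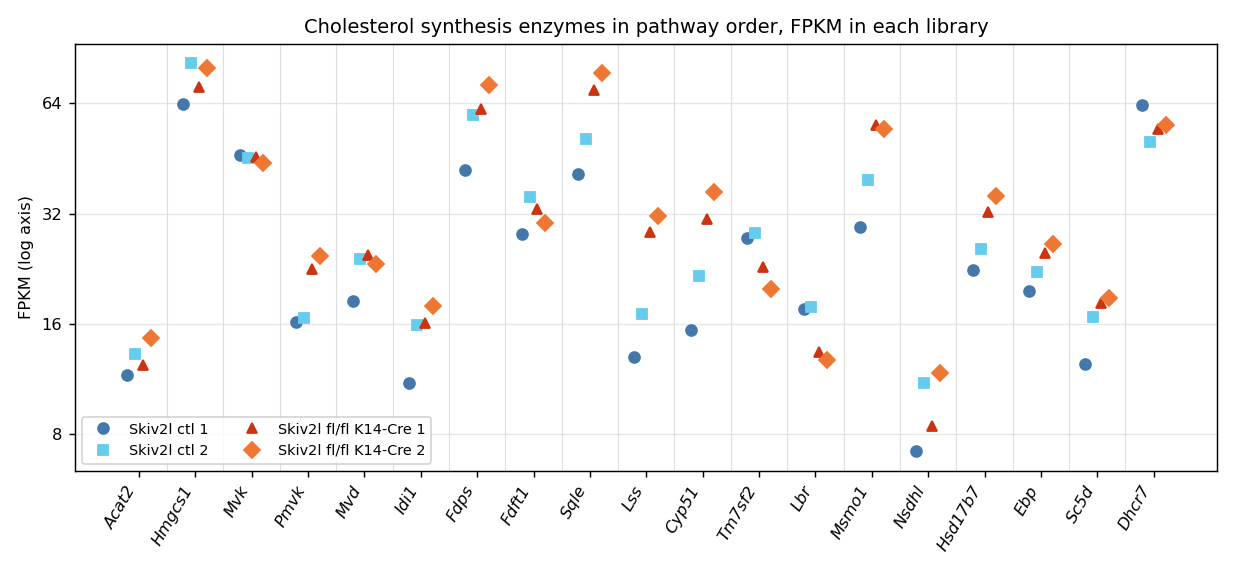
FPKM of the 19 synthesis enzymes (log axis) in pathway order, with 1 point for each of the 4 libraries and no averaging. The Skiv2l fl/fl K14-Cre points of Lss lie at 28.4 and 31.4 above control points at 13.0 and 17.0. Those of Tm7sf2 and Lbr lie under their controls, and those of Hmgcs1 lie between its controls. For Mvd the first lies at 24.6, just above the higher control at 24.1, and the second at 23.3 lies between the controls.

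Among genes that control SREBP, the escort rose and 1 of the anchors fell, while neither transcription factor was called with FPKM as deposited. Srebf2, whose product drives the synthesis genes, was the most highly expressed member in controls at 68.3 and 81.6 FPKM and was at 75.0 and 68.5 FPKM in knockouts. Srebf1, whose product mainly drives fatty acid genes, was at 30.3 and 31.1 against 32.9 and 34.6 FPKM, separated but small (log2 fold change 0.14, adjusted p = 0.235 by limma), and called higher with libraries set to the same median (0.34, adjusted p = 0.0303), over a range of adjusted p from 0.0303 to 0.507 across alternatives. Scap, the escort, was at 32.1 and 35.2 against 45.9 and 47.4 FPKM and rose in both knockouts (log2 fold change 0.46, SE 0.09, adjusted p = 0.0113). Insig2 (ENSMUSG00000003721.14, GRCm38 chromosome 1, 121304353 to 121332589), an anchor that keeps SCAP in the endoplasmic reticulum, was at 25.3 and 26.6 against 17.5 and 15.2 FPKM and fell in both (log2 fold change -0.64, SE 0.10, adjusted p = 0.00628). The ratio of Scap to Insig2 was 1.27 and 1.32 in controls and 2.61 and 3.11 in knockouts, a description drawn from the same 4 libraries. Insig2 was called under every scaling run, and it remained negative throughout. Without the first control pup the adjusted p was 0.0957 for Scap and 0.0632 for Insig2, and without the second 0.0599 and 0.0756, over ranges of 0.0032 to 0.0957 and 0.00454 to 0.0756 across alternatives. Scap shares 8.26% of its 75-base stretches with a transcript on the opposite strand that was under 1 FPKM in every library.

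Insig1, the anchor that is itself an SREBP target and is turned over when sterols are low, was set apart by a single library. It was at 5.35 FPKM in the first control pup, 16.9 in the second, and 13.98 and 13.2 in the knockouts. The controls thus differed 3.16-fold, with both knockouts between them, and the log2 fold change of 0.45 had a 95% interval from -0.61 to 1.51 (adjusted p = 0.440 by limma). Its direction depends on which control is used: it was 1.20 without the second control pup (adjusted p = 0.0251) and -0.30 without the first (adjusted p = 0.203), with adjusted p from 0.0251 to 0.614 across alternatives. The ratio of Insig1 to Insig2 was 0.211 and 0.634 in controls and 0.797 and 0.865 in knockouts. Stard4, a soluble carrier of cholesterol between membranes, was at 23.3 and 29.8 against 22.6 and 24.4 FPKM, with overlapping groups.

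Efflux pumps gave the largest differences of all 30 genes. Abcg1 (ENSMUSG00000024030.6, GRCm38 chromosome 17, 31057698 to 31115777), which loads cholesterol onto high-density lipoprotein, was at 4.28 and 4.20 FPKM in controls and 23.5 and 26.2 FPKM in knockouts, a ratio of means of 5.86. Its log2 fold change of 2.30 (SE 0.10, adjusted p = 9.9e-05 by limma) ranked 92 among all tested genes, and it was called under every alternative run (adjusted p from 1.07e-05 to 0.0101). Abca1, which hands cholesterol and phospholipid to lipid-poor apolipoproteins, was at 2.88 and 3.50 against 6.68 and 9.44 FPKM. The knockouts of Abca1 lay above both controls and differed from each other by more than the controls did (log2 fold change 1.10, SE 0.17, adjusted p = 0.00627 by limma). Its adjusted p was 0.0764 without the first control pup and 0.055 without the second, over a range from 0.000773 to 0.0764. The ratio of Abcg1 to Abca1 was 1.48 and 1.20 in controls and 3.51 and 2.77 in knockouts. Both pumps are also expressed by macrophages. Of the leukocyte markers Ptprc and Cd74 fell, Itgam was at 3.47 and 3.55 against 3.39 and 3.30 FPKM, and Lyz2 was at 0.988 and 5.82 against 3.40 and 2.86 FPKM, with both knockouts between the controls. The part of leukocytes in the pumps' values was not tested.

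The receptors did not follow the pumps. Nr1h2, which encodes LXR beta, was at 36.7 and 36.9 FPKM in controls and 29.5 and 28.8 FPKM in knockouts and fell (log2 fold change -0.33, SE 0.08, adjusted p = 0.0251 by limma). With libraries set to the same median its log2 fold change was -0.12 and with quantile normalization -0.24, and it was called under neither (adjusted p = 0.305 and 0.0707). Without either control pup it was not called (adjusted p = 0.134 and 0.138), nor without the second knockout (0.0537), with adjusted p from 0.0161 to 0.305 over all alternatives. Nr1h3, which encodes LXR alpha, was at 0.136 and 0.322 against 0.234 and 0.185 FPKM, so LXR beta was the more abundant LXR transcript in every library. Mylip, an LXR-induced ubiquitin ligase that marks lipoprotein receptors for degradation, was at 5.70 and 8.25 against 4.89 and 7.62 FPKM, with the pups of each genotype further apart than the genotypes.

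**Figure D3:**
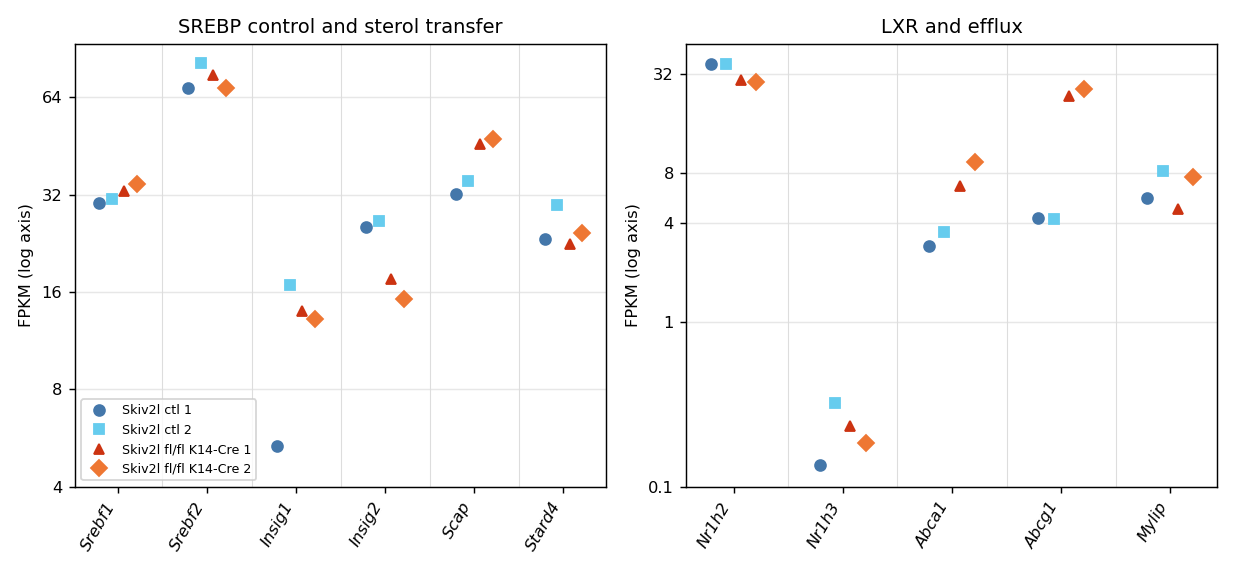
FPKM (log axis) of the 6 SREBP control and sterol transfer genes, left, and of the 5 LXR and efflux genes, right, with 1 point for each of the 4 libraries. Abcg1 goes from 4.28 and 4.20 in controls to 23.5 and 26.2 in knockouts, and the first control pup stands apart for Insig1 at 5.35.

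The levels before any comparison show how the pathway is set in newborn epidermis. In controls Srebf2 and Hmgcs1 were the highest members, at means of 75.0 ± 9.44 and 72.9 ± 13.1 FPKM (SD, n = 2), above more than 95% of all tested genes, and their pups overlapped. Dhcr7, Fdps, Sqle and Mvk followed, below Hmgcs1 without overlap, and each overlapped its neighbour in this order. Among tested members the lowest were Abca1 at 3.19 ± 0.440, Abcg1 at 4.24 ± 0.0536 and Mylip at 6.98 ± 1.80 FPKM, which did not overlap one another. In knockouts Sqle moved from the fifth to the second place and Abcg1 from the 28th to the 16th of 30.

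Pups of 1 genotype also differed together. The second control pup was above the first for 26 of 29 members and 17 of the 19 synthesis enzymes, against 54.2% of all tested genes. The median ratio of the second to the first control was 1.22 over the members and 1.01 over all tested genes. The exceptions were Mvk, Dhcr7 and Abcg1. In the knockouts the second pup was above the first for 19 of 29 members, against 42.8% of all tested genes, with median ratios of 1.06 and 0.968. Which pups shared a litter, their sex and the genotype of each control are not given, and their part in this spread was not tested.

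**Figure D4:**
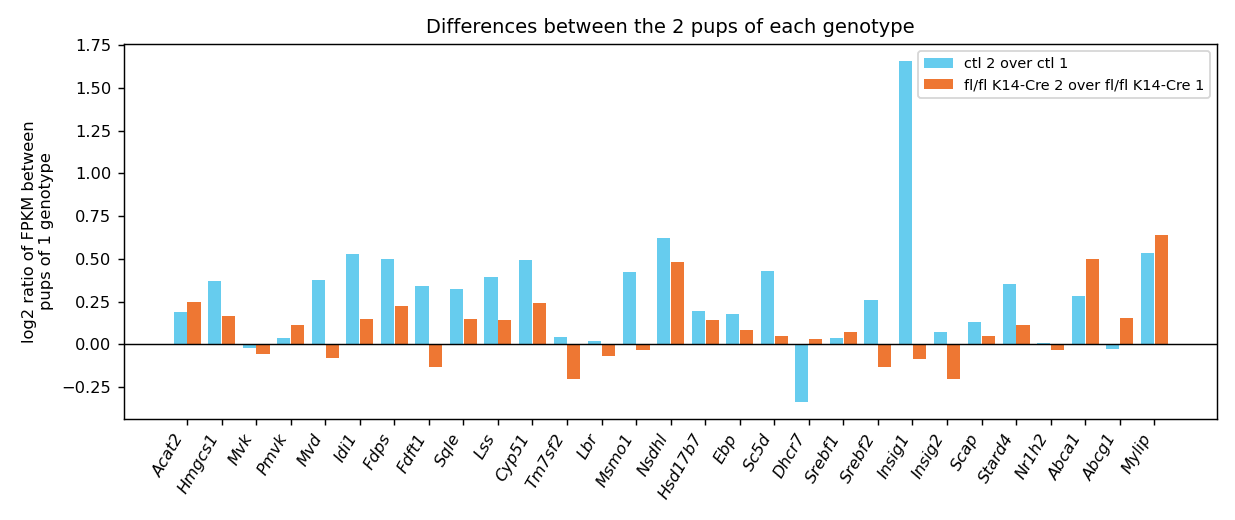
Log2 ratio of FPKM between the 2 pups of each genotype for the 29 tested members, blue bars for the second over the first Skiv2l ctl pup and orange bars for the second over the first Skiv2l fl/fl K14-Cre pup; 0 means equal levels. Blue bars point up for 26 of 29 genes and Insig1 has the tallest, a 3.16-fold difference.

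Calls depended on single libraries. Without the first control pup 2 of the 9 rises remained, those of Lss and Abcg1, and none of the 4 falls; without the second, 5 of the 9 rises remained, Insig1 was added, and again no fall was called. The arm with 1 pup then borrows the spread of the other, and the counts over all genes fell alongside, from 1223 higher and 3455 lower to 497 and 805 without the first control and 542 and 810 without the second. The directions of all 13 called members stayed as they were in every one of these fits. Without the first knockout 8 of the 9 rises and all 4 falls remained, and without the second 6 rises and 2 falls. With median scaling or quantile normalization all 9 rises stayed called, and of the 4 falls that of Insig2 alone, whereas with TPM all 13 stayed called.

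**Figure D5:**
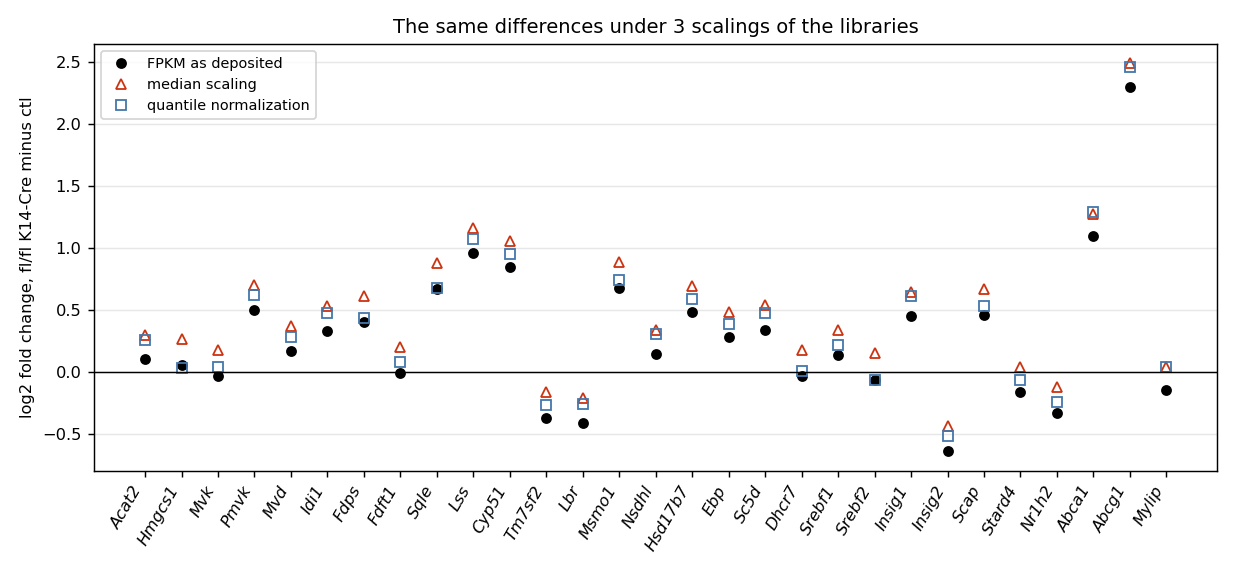
Log2 fold change of the 29 tested members with FPKM as deposited (filled circles), with each library set to the same median (triangles) and with quantile normalization (squares). The 9 genes called higher stay called under all 3, whereas Tm7sf2, Lbr and Nr1h2 stay below 0 but are called under the first alone, and Mvk, Fdft1, Dhcr7, Srebf2, Stard4 and Mylip, none of them called, cross 0 under at least 1 scaling.

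Genes around the pathway were counted from lists chosen with the members, to be read against the 8.99% of all tested genes called higher and 25.4% called lower. In the isoprenoid branch, which uses farnesyl diphosphate for prenylation, ubiquinone and dolichol, 0 of 9 rose and 4 fell, the largest being Fnta, a prenyltransferase subunit (33.1 and 36.0 against 22.6 and 19.7 FPKM, log2 fold change -0.68), and Coq2 of ubiquinone synthesis (log2 fold change -0.53). Of 10 genes of SREBP cleavage and sterol-regulated turnover 0 rose and 3 fell, among them Mbtps1, the protease that makes the first cut in SREBP (25.9 and 26.7 against 17.3 and 17.1 FPKM, log2 fold change -0.58), and the ubiquitin ligase Rnf139 (log2 fold change -0.45). With libraries set to the same median 2 falls remained in the former list and 1 in the latter, with 1 rise in each, and Rnf139 was not called. Of 12 genes of uptake, esters and transfer 2 rose and 0 fell: the endocytic receptor Lrp1 (39.0 and 36.3 against 63.7 and 80.8 FPKM, log2 fold change 0.91) and Npc2, which carries cholesterol out of lysosomes (log2 fold change 0.32). Under median scaling 6 of these 12 were called higher. Without the first control pup neither isoprenoid nor cleavage genes were called and 1 uptake gene was, and without the second none of the 3 lists held a call.

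Oxysterol and fatty acid genes split, and their counts too stand beside all-gene shares of 8.99% higher and 25.4% lower. Of 5 tested enzymes of oxysterols and cholesterol sulfate, Cyp7b1 (0.183 and 0.122 against 1.04 and 1.31 FPKM, log2 fold change 0.91) and Cyp27a1 (0.340 and 0.384 against 0.912 and 1.68 FPKM, log2 fold change 0.73), which hydroxylate sterols, rose from low levels (2.34 and 1.54 with a pseudocount of 0.1), and 1 fell, Cyp39a1 (log2 fold change -0.62). Cyp7b1 and Cyp27a1 passed the filter of 0.5 FPKM only in knockouts, where they are high. Their entry into the test was thus tied to their rise, and their calls are no support beside the all-gene shares. With no filter Cyp27a1 was not called (adjusted p = 0.0649 by limma), and it did not pass the filter of FPKM above 1 in 2 libraries. Of 12 fatty acid genes of the SREBP-1 type 3 rose and 1 fell. Scd2, a desaturase, was at 35.5 and 45.6 against 74.4 and 114 FPKM (log2 fold change 1.17), and Elovl6, an elongase, at 24.7 and 27.1 against 10.4 and 8.50 FPKM (log2 fold change -1.37), so 2 genes of 1 pathway moved in opposite directions. Of 5 tested LXR partners and other LXR targets 1 rose and 2 fell. Smpdl3a, a phosphodiesterase, was at 11.1 and 14.7 against 27.4 and 24.6 FPKM (log2 fold change 0.97), whereas Pltp, which transfers phospholipid to lipoproteins, was at 27.9 and 27.8 against 11.3 and 10.0 FPKM (log2 fold change -1.31). The LXR targets thus included a gene that fell beside the pumps that rose. With libraries set to the same median 1 of these 2 falls remained, that of Pltp, and with quantile normalization Cyp39a1 was not called (adjusted p = 0.0514 by limma). Without the first control pup Scd2 (adjusted p = 0.0937 by limma), Cyp27a1 (0.139) and Cyp39a1 (0.0774) were not called, nor were they without the second (0.0564, 0.125 and 0.12), and Cyp27a1 was not called without the second knockout (0.1).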

How the data were processed

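Total RNA of P0 epidermis was sequenced by the authors, processed with the Astrocyte RNASeq workflow of their institution and deposited as 1 table per pup. In these deposited tables FPKM corrects fragment numbers for gene length and library size. The deposited TPM values share a common sum, and the deposited coverage signal gives the mean read depth per base. The submitters' processing notes name GRCm38; the aligner, its version and the strand setting are not given in the sources used here. Without counts, counting error could not be given.

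Here FPKM was summed per gene identifier. Protein-coding genes above 0.5 FPKM in at least 1 library, the filter of the study's methods, entered a two-sided limma test (version 3.58.1, R 4.3.3, trended eBayes) of log2(FPKM + 1), adjusted by Benjamini-Hochberg over 13609 genes; the script was tested on simulated data. Fold changes on this scale understate changes of low genes. Replicate numbers are those of the labels. Members, lists, motifs and tests were chosen with earlier results of these data known, so none is independent support, and no list was tested. All 30 members are named, with every library's value for called members and for the control and efflux groups; from other lists at most the 2 called genes of largest absolute log2 fold change were named, except that Cyp39a1 was added after its values were seen. The 75-base stretches of each member's GENCODE M21 transcripts were searched in all other genes. Figures were drawn with matplotlib 3.10.9.

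Alternatives were leaving out each library, median scaling or quantile normalization of the libraries, TPM, blocking on the replicate number, untrended eBayes, a 1.5-fold minimum, a pseudocount of 0.1, and either no filter or one requiring FPKM above 1 in 2 libraries.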

Additional observations from a re-analysis of the deposited data

Results flagged for a closer look

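Of the non-coding transcripts and pseudogenes that share sequence or position with a member, and that were not in the main test, the following 4 passed 0.5 FPKM in a library and were above both controls in both knockouts. Only rises were looked for, and Gm3571 and Gm48342, which also passed 0.5 FPKM, overlapped between genotypes. Among all tested protein-coding genes 18.2% had both knockouts above both controls. The antisense transcript 4930483K19Rik, opposite Lss, was at 0.706 and 0.725 FPKM in controls and 1.74 and 1.42 FPKM in knockouts, a ratio of means of 2.2; it shares 1.15% of the 75-base stretches of Lss. The transcript 5830462I19Rik, opposite Scap, was at 0.673 and 0.433 against 0.903 and 0.956 FPKM, a ratio of 1.68. The Idi1-like pseudogene Gm13502 was at 4.09 and 5.17 against 5.27 and 6.01 FPKM, a ratio of 1.22, and 23.57% of the 75-base stretches of Idi1 occur in other genes. The Fdft1-like pseudogene Gm6781 was at 0.347 and 0.340 against 0.413 and 0.549 FPKM, a ratio of 1.4, and passed 0.5 FPKM only in the second knockout. None of these was tested, and without a stated strand setting reads of each pair cannot be assigned with certainty.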

How the results depend on the processing

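With 2 pups per genotype and no counts, the number of pups limits every value. Members called higher stayed within 1.5 times of 9 in all alternatives except leaving out a library (2 to 8). Members called lower, 4 as reported, were 1 with median scaling, 1 with quantile normalization, 2 without a trend, 1 with a 1.5-fold minimum and 0 to 4 leaving out a library. Over all genes, median scaling gave 1894 higher and 1623 lower, quantile normalization 1917 lower, the 1.5-fold minimum 1719 lower, and leaving out a library 497 to 1146 higher and 805 to 3135 lower. The median of the synthesis enzymes was 0.49 with median scaling and 0.14 to 0.43 leaving out a library. The median of the SREBP control genes, 0.04 as reported, was 0.25 with median scaling, -0.0079 with TPM and -0.24 to 0.11 leaving out a library. That of the LXR and efflux genes, 0.48, was -0.019 with no filter, which adds Nr1h3, and 0.28 to 0.73 leaving out a library. No called member changed sign. Uncalled members that did were Mvk (0.18 with median scaling, 0.039 with quantile normalization), Fdft1 (0.20, 0.083), Dhcr7 (0.18, 0.0067), Mylip (0.041, 0.045), Srebf2 (0.15 with median scaling) and Stard4 (0.044 with median scaling). Leaving out a library moved Acat2 from -0.0089 to 0.22, Hmgcs1 from -0.13 to 0.24, Mvd from -0.0090 to 0.35, Fdft1 from -0.17 to 0.16, Nsdhl from -0.13 to 0.43, Dhcr7 from -0.19 to 0.14, Srebf2 from -0.19 to 0.068, Insig1 from -0.30 to 1.20, Stard4 from -0.33 to 0.0097 and Mylip from -0.42 to 0.13. The causes were not tested. With no filter Cyp51, Msmo1 and Tm7sf2 were not called.

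The replicate numbers are shared by the genotypes but name different pups. The deviations of same-numbered pups from their group means correlated at -0.077 over 13609 genes. Among the 29 tested members the second pup was above the first for 26 in controls and 19 in knockouts. With 2 pups per genotype and no litter given, these values cannot show whether the numbers pair pups. With the number as a replicate block 10 members were called higher and 4 lower, Fdps being added.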
